A study of Mus musculus with 8 samples.

Results

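The 31 genes described here mark astrocytes or their reactive state, and were followed in the hippocampus of mice that carry a neuronal Cre transgene. The members were the rows of the count table named as 1 of 31 listed genes, 31 of 46078 rows in all, and each name had exactly 1 row. They comprised 25 genes of astrocyte identity and 6 reactivity genes (Gfap, Vim, Serpina3n, C4b, Cd44 and Osmr), and all 31 passed the filter on low counts. The T29-1 Cre group consisted of 4 libraries from Cre+/- carriers of Tg(Camk2a-cre)T29-1Stl, and the WT group of 4 libraries without the transgene. Both were poly(A) RNA of the hippocampus at 9 weeks of age on a C57BL/6J background, and the labels name no floxed allele in either genotype. In this line the Camk2a promoter drives Cre recombinase, and that promoter is active in excitatory neurons of the forebrain, so astrocytes are not the cells in which it is known to act. Nothing in the labels states that each replicate is its own animal; the spread behind every p-value is that of these libraries and may be technical.

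Astrocytes clear glutamate and potassium from around synapses, convert glutamate to glutamine, supply lipids and metabolites to neurons, buffer water at the vessel wall and form a network through gap junctions. When tissue is injured, inflamed or stressed they become reactive: the intermediate filament proteins GFAP and vimentin increase, acute-phase and complement genes such as Serpina3n and C4b are induced, and receptors such as CD44 and the oncostatin M receptor appear at the surface. Reactivity is often used as a sign that a transgene or a manipulation of neurons has disturbed the tissue. The comparison asks whether either set of genes differed in mice that carry the Cre transgene.

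The libraries held 23358289 to 30882631 counts. WT replicate 4 stood apart from the other 7: over all genes tested it deviated from the 8-library mean by a median of 0.142 in either direction (log2), against 0.0634 to 0.0789 in the others. Values that moved by over 1.5 times or changed sign in its absence are given both ways beside the gene or as ranges in the closing section. Of 15996 genes tested, edgeR's quasi-likelihood test called 1, St6gal2, which is not among the 31.

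Astrocyte genes were detected in every library, which in whole hippocampus does not show the cells their reads came from. The defining genes Aqp4, Aldh1l1, Slc1a3, Gja1, Aldoc and Sox9 each had at least 704 counts in every library, and the 31 members together took 1.08% to 1.13% of reads in T29-1 Cre libraries and 1.04% to 1.13% in WT libraries. Levels between genes were compared as CPM per kilobase of merged exons (CPM per kb). On this scale the highest member was Apoe, the main apolipoprotein of the brain, at 802 in T29-1 Cre and 840 in WT. It was followed by Glul, the enzyme glutamine synthetase, at 418 in T29-1 Cre and 416 in WT. Slc1a2, the main glutamate transporter, was at 235 ± 1.72 CPM per kb in T29-1 Cre and 217 ± 35.0 in WT (SD, n = 4 each). Clu, an extracellular chaperone, was at 219 in T29-1 Cre and 227 in WT, and Aldoc, a glycolytic aldolase, at 222 in T29-1 Cre and 222.5 in WT, so the order of Slc1a2, Clu and Aldoc was not settled beyond their spread. At the low end came Gli3, a transcription factor of the Hedgehog pathway, at 1.11 CPM per kb in T29-1 Cre and 1.01 in WT. Cd44 was at 0.564 in T29-1 Cre and 0.505 in WT, and Osmr was lowest, at 0.402 in T29-1 Cre and 0.373 in WT. The order depends on the length used, since merged exons can far exceed the longest transcript. The lengths were 12113 against 5491 bp for Osmr, 6776 against 5614 bp for Cd44 and 3437 against 1810 bp for Clu.

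**Figure D1:**
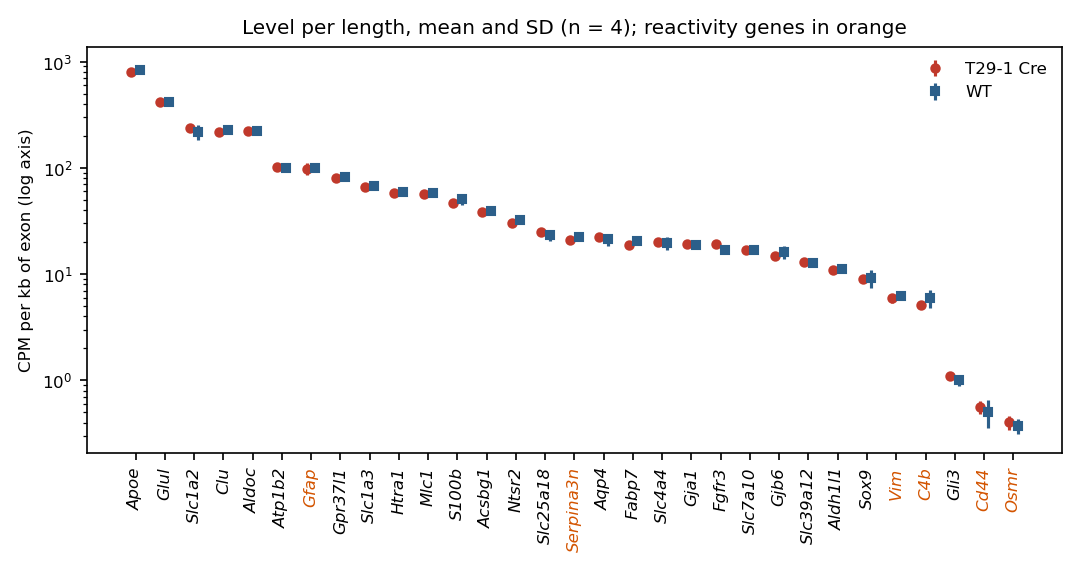
Level of each of the 31 members as CPM per kb of merged exons (log axis), with the mean and SD of 4 T29-1 Cre libraries (red circles) and 4 WT libraries (blue squares), ordered from high to low. Names in orange are reactivity genes; Gfap lies among the upper members, at 97.9 in T29-1 Cre and 99.2 in WT, and Cd44 and Osmr are the 2 lowest.

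No member differed between the genotypes past the threshold. edgeR's quasi-likelihood test called 0 of 31 members at an adjusted p under 0.05 (background 0.00625% of all genes tested), and 1 member, Fgfr3, had an unadjusted p under 0.05, against 2.43% of all genes. DESeq2 and limma-voom also called 0, each with Fgfr3 as the 1 member at an unadjusted p under 0.05. The T29-1 Cre and WT libraries overlapped for every member, whereas they did not overlap for 1.81% of all genes (0.844% higher and 0.963% lower in T29-1 Cre). Of the 31 log2 fold changes of T29-1 Cre over WT, 12 were above 0 and 19 below, with a median of -0.02, against -0.001 for all genes tested. They ran from -0.20 for C4b to 0.17 for Fgfr3. In whole hippocampus, fewer cells of a type and less RNA per cell cannot be told apart, and this holds for each value below.

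The precision of these values bounds what could have gone undetected. In the fit to all libraries, the 95% confidence interval of the fold change lay within 1.5-fold in either direction for all 31 members. It did so for 11989 of the 12100 genes tested at or above the mean CPM of the lowest member. The interval lay within 1.25-fold for 27 members, and for 10321 of the same 12100 genes. The exceptions among the members were Gli3, C4b, Cd44 and Osmr. Of these Cd44 was the least certain, with a fold change of 1.11 and an interval of 0.836 to 1.47. Without WT replicate 3, Cd44 was at 0.34 in log2 (SE 0.182), so the bounds hold only for the fit to all libraries. The members with the narrowest intervals included Glul, at a fold change of 1.00 with an interval of 0.935 to 1.08, and Aldoc, with an interval of 0.928 to 1.07.

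**Figure D2:**
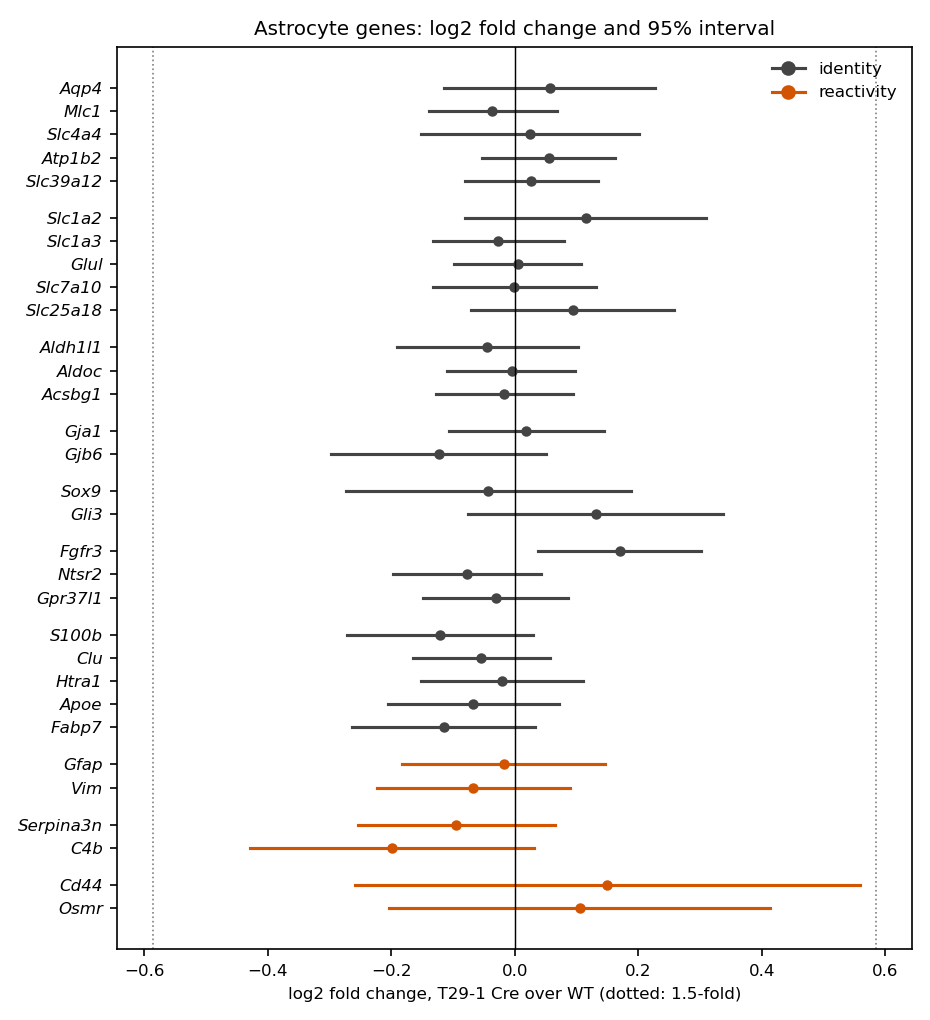
Log2 fold change of T29-1 Cre over WT for each member (points) with its 95% interval (lines), from edgeR's quasi-likelihood fit to 4 libraries per genotype, grouped by role. Identity genes are dark grey, reactivity genes orange and the dotted lines mark 1.5-fold; all intervals lie inside them, and that of Fgfr3 alone does not include 0.

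Genes of glutamate and amino acid handling did not differ past the threshold, with 3 log2 fold changes above 0, 2 below and a median of 0.005. Slc1a2 (GRCm38 chromosome 2, 102658659 to 102790784, plus strand) held 3097, 3107, 3055 and 3080 CPM in T29-1 Cre replicates 1 to 4, against 3009, 3153, 3068 and 2166 CPM in WT replicates 1 to 4. The 4 T29-1 Cre libraries and the first 3 WT libraries formed 1 narrow range, and WT replicate 4 lay below it. T29-1 Cre over WT came to 0.11 on the log2 scale (SE 0.091, edgeR adjusted p = 0.9985), and without WT replicate 4 it was 0.0045 (SE 0.0359). Slc1a3, the other astrocytic glutamate transporter, averaged 562 ± 11.6 CPM in T29-1 Cre and 572 ± 33.6 CPM in WT (SD, n = 4 each). Glul averaged 1387 ± 32.2 CPM in T29-1 Cre and 1382 ± 71.8 CPM in WT (SD, n = 4 each). The differences of both were smaller than the spread between libraries. Slc7a10, a small neutral amino acid and D-serine transporter, and Slc25a18, a mitochondrial glutamate carrier, had log2 fold changes of -0.001 (SE 0.0612) and 0.09 (SE 0.0765). Slc25a18 was at 0.17 without WT replicate 4 (SE 0.0608, unadjusted p = 0.0157 by edgeR's quasi-likelihood test, not called) and at 0.04 without WT replicate 1 or T29-1 Cre replicate 1. Slc7a10 shares 377 bp of exons with Lrp3 and Slc25a18 shares 32 bp with Atp6v1e1, each on the opposite strand, so their reads are uncertain there if counting ignored strand. Aldh1l1, Slc1a2, Glul, Fgfr3 and Gli3 also share exons with other genes, which had at most 474 counts over all libraries.

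Genes of water and ion homeostasis gave 4 values above 0 and 1 below, with a median log2 fold change of 0.03. That count rested on WT replicate 4, without which 2 were above 0 and 3 below. Aqp4, the water channel of astrocyte endfeet, held 141, 138, 144 and 128 CPM in T29-1 Cre libraries, against 150.4, 136, 135 and 109 CPM in WT libraries, and the T29-1 Cre range lay inside the WT range. Its log2 fold change of 0.06 (SE 0.0795) was -0.03 without WT replicate 4. Slc4a4, a sodium bicarbonate cotransporter, followed the same course: it averaged 215 ± 5.73 CPM in T29-1 Cre and 212 ± 29.8 CPM in WT (SD, n = 4 each), and WT replicate 4 was again lowest, at 168 CPM. Slc4a4 was at 0.02 in log2 with all libraries and at -0.07 without that one. Mlc1, a membrane protein of the endfeet, was at a log2 fold change of -0.04, Atp1b2, the glial beta subunit of the sodium pump, at 0.06, and the zinc transporter Slc39a12 at 0.03. Slc39a12 varied least of all members, with a pooled SD of 0.0461 log2 CPM within a genotype, against a median of 0.12 over all genes tested.

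The metabolic enzymes and the gap junction genes showed no difference beyond their spread either. All 3 enzymes had log2 fold changes below 0 with all libraries and above 0 without WT replicate 4. Aldh1l1, a folate enzyme used as a general astrocyte marker, averaged 49.0 ± 2.72 CPM in T29-1 Cre and 50.6 ± 4.76 CPM in WT (SD, n = 4 each). Aldoc and Acsbg1, an acyl-CoA synthetase, had log2 fold changes of -0.005 (SE 0.0481) and -0.02 (SE 0.0512). Of the gap junction genes, Gja1 (connexin 43) averaged 198 ± 13.8 CPM in T29-1 Cre and 195 ± 10.5 CPM in WT (SD, n = 4 each). Gjb6 (connexin 30) held 40.1, 38.8, 40.7 and 39.3 CPM in T29-1 Cre libraries, against 39.6, 45.1, 37.6 and 51.2 CPM in WT libraries. The T29-1 Cre libraries were close together while WT replicates 2 and 4 were high. Gjb6 stood at -0.12 (log2 fold change, SE 0.0813), and at -0.03 without WT replicate 4.

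Fgfr3 had the highest log2 fold change of the members. It encodes fibroblast growth factor receptor 3, which marks astrocytes among the cells of the adult brain, and lies on GRCm38 chromosome 5, 33721674 to 33737068, on the plus strand. Its level was 149.2, 139, 130.1 and 129.8 CPM in T29-1 Cre replicates 1 to 4, against 112, 132, 121 and 122 CPM in WT replicates 1 to 4. WT replicate 2 lay above T29-1 Cre replicates 3 and 4, so the ranges overlapped. Fgfr3 shares 998 bp of exons with G630022F23Rik on the opposite strand, the largest overlap of any member. Its reads are uncertain there if counting ignored strand. The fold change of Fgfr3 was 1.125 with an interval of 1.03 to 1.23 (log2 fold change 0.17, SE 0.061), the unadjusted p was 0.0151 and the adjusted p by edgeR's quasi-likelihood test 0.9985. The exact two-sided permutation test gave p = 0.0857 before adjustment, where 0.0286 is the smallest it can give. Without T29-1 Cre replicate 1 or WT replicate 1 the unadjusted p was no longer under 0.05. Of the other receptors among the identity genes, in log2, Ntsr2, a neurotensin receptor, stood at -0.08 (SE 0.0554) and the orphan receptor Gpr37l1 at -0.03 (SE 0.0549).

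The transcription factors were the identity genes with the widest intervals. Sox9, a regulator of the glial fate, held 40.0, 36.2, 37.1 and 34.5 CPM in T29-1 Cre libraries, against 46.7, 35.7, 40.2 and 29.4 CPM in WT libraries. All 4 T29-1 Cre values lay within the WT range, which ran from WT replicate 4 up to WT replicate 1. The log2 fold change of Sox9 was -0.04 (SE 0.107), 0.07 without WT replicate 1 and -0.14 without WT replicate 4. Gli3 averaged 10.7 ± 0.573 CPM in T29-1 Cre and 9.7 ± 1.18 CPM in WT (SD, n = 4 each). Its fold change was 0.13 in log2 (SE 0.096), and WT replicate 4 was lowest at 7.98 CPM. Without that library Gli3 was at 0.05 (SE 0.0794).

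The secreted and lipid-binding group was the largest role whose values all had 1 sign, with 5 of 5 log2 fold changes below 0, a median of -0.07 and 0 past the threshold. Without WT replicate 4, 3 of the 5 were below 0. Apoe held 1786, 1599, 1757 and 1715 CPM in T29-1 Cre libraries, against 1676, 1753, 1704 and 2050 CPM in WT libraries. Only WT replicate 4 exceeded the T29-1 Cre range, and the log2 fold change of Apoe was -0.07 (SE 0.064), or 0.0035 without that library. S100b, a calcium-binding protein that astrocytes release, was likewise highest in WT replicate 4, at 88.3 CPM, and had a log2 fold change of -0.12 (SE 0.0701), or -0.04 without it. Fabp7, a fatty acid binding protein of astrocytes and of neural progenitors, averaged 23.7 ± 1.99 CPM in T29-1 Cre and 25.7 ± 1.25 CPM in WT (SD, n = 4 each). Clu and Htra1, a secreted serine protease, had log2 fold changes of -0.05 (SE 0.0516) and -0.02 (SE 0.0609), and without WT replicate 4 they were at -0.02 and 0.04.

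The reactivity genes did not differ between the genotypes past the threshold, with 0 of 6 called and 0 at an unadjusted p under 0.05. Gfap, the classical marker of reactive astrocytes (GRCm38 chromosome 11, 102887336 to 102900912, minus strand), held 484, 419, 393 and 357 CPM in T29-1 Cre replicates 1 to 4, against 422, 445, 410 and 396 CPM in WT replicates 1 to 4. The T29-1 Cre range enclosed the whole WT range. Gfap averaged 413 ± 53.6 CPM in T29-1 Cre and 418 ± 20.9 CPM in WT (SD, n = 4 each), a fold change of 0.988 with an interval of 0.881 to 1.11. On the log2 scale this was -0.02 (SE 0.0767, edgeR adjusted p = 0.9985), and it had the opposite sign without T29-1 Cre replicate 4, at 0.05. The exact two-sided permutation test for Gfap gave p = 0.8.

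Vim, the intermediate filament that joins GFAP in reactive astrocytes and is also made by endothelial, ependymal and progenitor cells, held 32.3, 26.8, 27.2 and 26.6 CPM in T29-1 Cre libraries, against 30.3, 28.0, 28.2 and 31.9 CPM in WT libraries. T29-1 Cre replicate 1 was the highest of all 8 libraries for Vim, as it was for Gfap and Osmr. In that library the endothelial and mural markers had a median deviation of 0.27 (log2, against the 8-library mean) and the meningeal fibroblast markers one of 0.76; their part in these levels was not tested. Without that library the log2 fold changes of Gfap and Vim were -0.10 and -0.14, each uncalled.

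Serpina3n, an inhibitor of serine proteases that is among the strongest reactive astrocyte genes in mice, held 41.7, 46.0, 38.5 and 47.2 CPM in T29-1 Cre libraries, against 48.4, 48.4, 40.8 and 47.6 CPM in WT libraries. Its log2 fold change was -0.09 (SE 0.0742), with the 2 lowest libraries split between the genotypes. C4b, complement component 4, had the lowest log2 fold change of all members, -0.20 (SE 0.107, unadjusted p = 0.0857, adjusted p = 0.9985). It held 30.1, 32.0, 27.9 and 27.5 CPM in T29-1 Cre libraries, against 43.0, 33.1, 28.95 and 29.6 CPM in WT libraries, so WT replicate 1 lay above the other 7. Without WT replicate 1 the value was -0.06. It was -0.27 without WT replicate 3 and -0.25 without WT replicate 4, with unadjusted edgeR p of 0.0271 and 0.0282, and was called in neither. The oligodendrocyte and ependymal markers were also high in WT replicate 1, with median deviations of 0.22 and 0.68 over 12 and 5 tested genes, and their part in the C4b level was not tested. C4b (GRCm38 chromosome 17, 34728380 to 34743882, minus strand) has a near-identical neighbour, C4a, so the split of its reads is uncertain.

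Cd44, a hyaluronan receptor, and Osmr, the receptor for oncostatin M, were the lowest members and the least precise. Cd44 rested on 62 to 142 counts per library and averaged 3.82 ± 0.537 CPM in T29-1 Cre and 3.42 ± 1.03 CPM in WT (SD, n = 4 each). Osmr rested on 83 to 156 counts and averaged 4.87 ± 0.707 CPM in T29-1 Cre and 4.52 ± 0.743 CPM in WT (SD, n = 4 each). Their log2 fold changes of 0.15 (SE 0.19) and 0.11 (SE 0.144) were smaller than their standard errors, and without WT replicate 4, the lowest library for Osmr, they were 0.04 and 0.0034. Cd44 ran from 0.03 without WT replicate 1, its lowest library, to 0.34 without WT replicate 3 (SE 0.182), and was called in neither. Without T29-1 Cre replicate 1, its highest library, Osmr was at -0.00036.

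**Figure D3:**
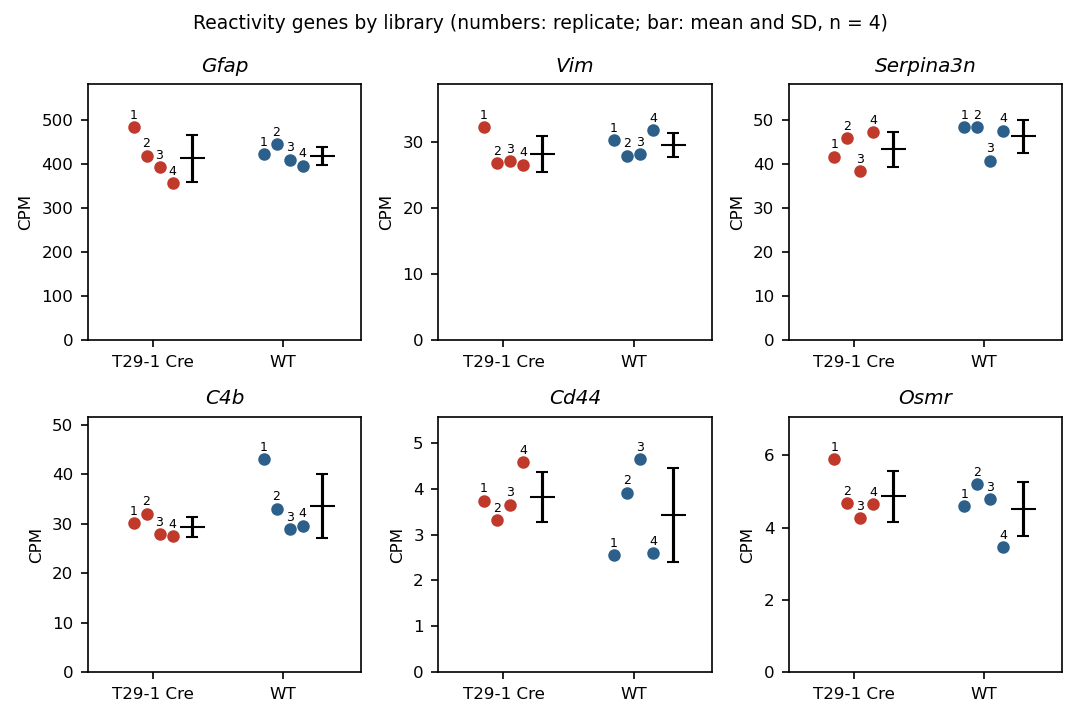
CPM of the 6 reactivity genes in each library (vertical axes start at 0), T29-1 Cre in red and WT in blue, with the replicate number above each point and the mean and SD of 4 libraries beside it. The genotypes overlap for all 6 genes; T29-1 Cre replicate 1 is high for Gfap (484 CPM), Vim and Osmr, and WT replicate 1 is high for C4b (43.0 CPM).

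The contrast between reactivity and identity was small beside the spread of libraries. The median log2 fold change was -0.04 for the 6 reactivity genes and -0.02 for the 25 identity genes, a difference of -0.03. Single libraries turned these values: the difference was -0.06 without T29-1 Cre replicate 1 and 0.01 without T29-1 Cre replicate 4, where the reactivity median was -0.09 and 0.0031. The identity median was 0.01 without WT replicate 1. In single libraries, the median deviation of the reactivity genes, less that of the identity genes, was 0.09, 0.05, -0.11 and -0.03 in T29-1 Cre replicates 1 to 4, against 0.02, 0.09, 0.04 and -0.08 in WT replicates 1 to 4. Each genotype had libraries on both sides of 0. The reactivity genes varied more between libraries than the identity genes, with median SDs of 0.169 and 0.0966 log2 CPM within a genotype, and Cd44 and Osmr, the members with the fewest counts, had the highest and second highest SD.

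Other genes of the reactive state and of the astrocyte were taken from lists that do not share members with the 31. Of 30 further astrocyte genes tested, 0 passed the threshold, 14 were above 0 and 16 below, and the median log2 fold change was -0.01. The 3 with the smallest p were Mt3, a metallothionein, at -0.14 (SE 0.0684), Lfng, a modifier of Notch, at 0.20 (SE 0.104), and the phospholipase Pla2g7 at -0.09 (SE 0.0669). Of 10 pan-reactive genes, 6 could be tested and 0 passed, with Hspb1, a small heat shock protein, at -0.33 (SE 0.202), the intermediate filament gene Synm at 0.04 (SE 0.0793) and Aspg at 0.07 (SE 0.165). The other 4 were near the limit of detection in both genotypes: Lcn2, a strongly induced marker of reactive astrocytes, had 0 to 1 counts per library in T29-1 Cre and 0 to 2 in WT, and Timp1 had 0 to 2 in both. Steap4 had 1 to 8 counts in T29-1 Cre and 1 to 7 in WT, and Cxcl10 1 to 7 in T29-1 Cre and 0 to 7 in WT.

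Of 12 genes of the neurotoxic type of reactivity 0 passed, with 5 above 0, 7 below and a median of -0.06. Fkbp5, a glucocorticoid-induced chaperone, was at -0.12 (SE 0.0649), Psmb8, of the immunoproteasome, at -0.23 (SE 0.174) and H2-D1, a class I histocompatibility gene, at -0.12 (SE 0.112). Of 12 genes of the injury-repair type 10 could be tested and 0 passed, with a median of -0.03. Ptx3, a pentraxin, had the smallest unadjusted p of them (0.0307), at 0.377 ± 0.169 CPM in T29-1 Cre and 0.65 ± 0.0599 CPM in WT (SD, n = 4 each). Cd14, a lipopolysaccharide co-receptor, was at 0.26 (SE 0.205) and B3gnt5, a glycosyltransferase, at -0.26 (SE 0.239). The gp130 and STAT3 pathway carries the oncostatin M signal that drives Gfap in reactive astrocytes. Of its 13 genes 10 were tested, 0 passed and the median was 0.03, with Socs3, its induced inhibitor, at 0.41 (SE 0.23), Lifr at 0.08 (SE 0.0674) and Cntfr at -0.06 (SE 0.0505). The ligands Il6 and Osm each had at most 3 counts in any library, with Il6 at 0 to 2 in T29-1 Cre and 0 to 1 in WT.

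Because STAT3 acts on reactivity genes, the promoter windows of the members were searched for the STAT letters TTCNNNGAA, which read the same on both strands. RefSeq windows on GRCm38.p6, from 250 bases before to 50 after a start, were matched by symbol for 26 members. The letters occurred in 1 of 5 reactivity genes and 4 of 21 identity genes. Some genes have more than 1 window. By window the counts were 1 of 5 and 4 of 26, against 8.3% of all 32851 windows of this length. The Gfap window (chr11:102897151-102897450, minus strand, 5′ to 3′) is shown because Gfap is the gene by which reactivity is usually judged. It lies inside the gene span given above (102887336 to 102900912), not at its upstream end, and bases further upstream were not searched. The match is in capitals and begins 2 bases before the RefSeq start.
Gfap: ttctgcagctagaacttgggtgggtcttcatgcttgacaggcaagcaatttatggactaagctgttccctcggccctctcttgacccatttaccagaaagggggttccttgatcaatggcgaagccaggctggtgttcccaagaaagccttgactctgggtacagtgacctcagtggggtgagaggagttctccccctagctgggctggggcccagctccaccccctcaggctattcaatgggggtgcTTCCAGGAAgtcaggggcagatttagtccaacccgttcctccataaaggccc

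The matches of the identity genes are set out with 12 bases on each side, 5′ to 3′ on the strand of the gene, for comparison with that of Gfap.
Aldoc, chr11:78324062-78324094, plus strand: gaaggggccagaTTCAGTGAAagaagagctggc
Aldoc, chr11:78324103-78324135, plus strand: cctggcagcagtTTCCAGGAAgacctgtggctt
Slc1a3, chr15:8710883-8710915, minus strand: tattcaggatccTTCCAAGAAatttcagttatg
Ntsr2, chr12:16653396-16653428, plus strand: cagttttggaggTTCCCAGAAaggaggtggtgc
Acsbg1, chr9:54661891-54661923, minus strand: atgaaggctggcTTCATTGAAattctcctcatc
The second Aldoc match has the same 9 letters as that of Gfap. Aldoc and Gfap had log2 fold changes of -0.005 and -0.02. The NFI letters TTGGCA were found on either strand in 1 of 5 reactivity genes and 3 of 21 identity genes. By window this was 1 of 5 and 3 of 26, against 14.1% of all windows. The SOX letters ACAATGG were found in 0 of 5 reactivity windows and 0 of 26 identity windows, against 3.66% of all windows. A match of letters is a description and not a binding site.

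The deviation of WT replicate 4 ran along merged exon length and, less closely, GC content among the members. Against the mean of the other 3 WT libraries, the 9 members with at least 6000 bp of merged exons had a median deviation of -0.37 (log2), and 8 of them lay below 0. The 11 members under 3000 bp had a median of 0.13, with 3 below 0. Slc1a2, with 13133 bp, was lowest at -0.51 and Osmr, with 12113 bp, at -0.48, while Gjb6, with 2674 bp, was highest at 0.33. Sox9, with 4135 bp, was at -0.46 and Fgfr3, with 7158 bp, at 0.01. Spearman's correlation of this deviation with length was -0.718 across the 31 members and -0.414 across 15236 genes, and with GC content 0.441 and 0.352, as a description, since all points come from the same library.

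The log2 fold changes between genotypes are set out by length as a description. The long members lay low in WT replicate 4, so leaving it out lowers their value by construction, and no cause was tested. The 9 longest members had a median log2 fold change of 0.11 with all libraries and 0.003 without WT replicate 4, and the 11 shortest had -0.04 and -0.02. With offsets for length and GC content in each library, an alternative added after the data were seen, the log2 fold change was 0.06 for Slc1a2, 0.15 for Fgfr3 and -0.20 for C4b, and 0 of 31 members were called.

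**Figure D4:**
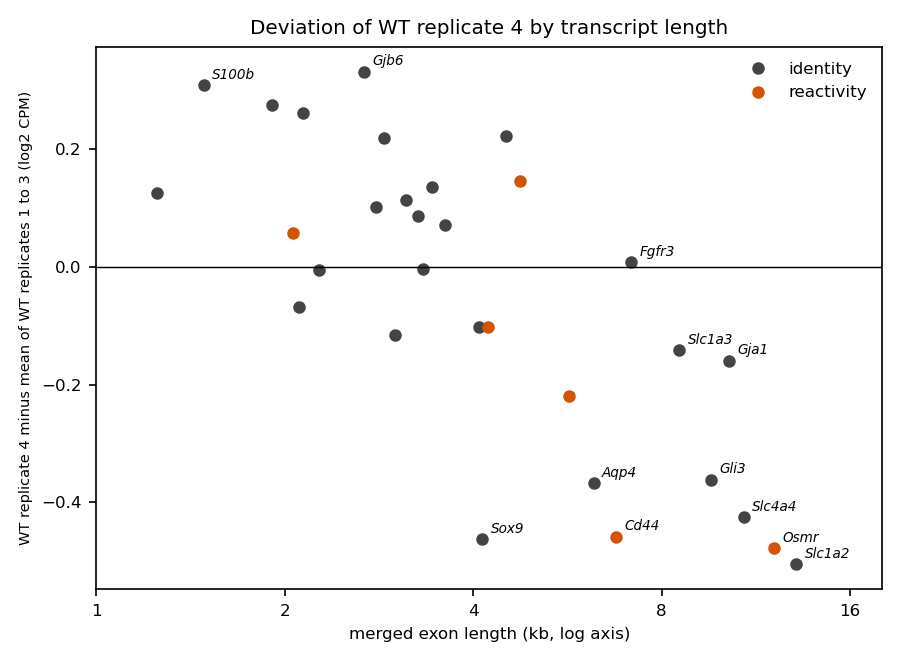
Deviation of WT replicate 4 from the mean of WT replicates 1 to 3 (log2 CPM) against merged exon length (kb, log axis) for the 31 members, identity genes in dark grey and reactivity genes in orange. Long members such as Slc1a2 (-0.51) and Osmr (-0.48) lie below 0 and short ones such as Gjb6 (0.33) above.

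Across libraries the identity genes varied within a narrow range. Their median deviation was 0.03, -0.04, 0.01 and -0.02 in T29-1 Cre replicates 1 to 4, against 0.03, 0.02, -0.06 and 0.01 in WT replicates 1 to 4. WT replicates 3 and 4 were each lowest for 10 of the 31 members, and WT replicate 4 was also highest for 10. Without WT replicate 3, C4b, Fgfr3, Gjb6, Ntsr2 and S100b had an unadjusted edgeR p under 0.05, 5 members in place of 1, and 0 were called. The count over all genes rose as well, to 678 of 16142 from 388 of 15996 with all libraries. Without WT replicate 4, 3 members had such a p (C4b, Fgfr3 and Slc25a18), beside 463 of 16139 genes, and 0 members were called. The authors' deposited table lists all 31 members, with the same sign as here for 31 of them. In the authors' deposited table Fgfr3 has a log2 fold change of 0.17 and an unadjusted p of 0.0125, and C4b one of -0.20.

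**Figure D5:**
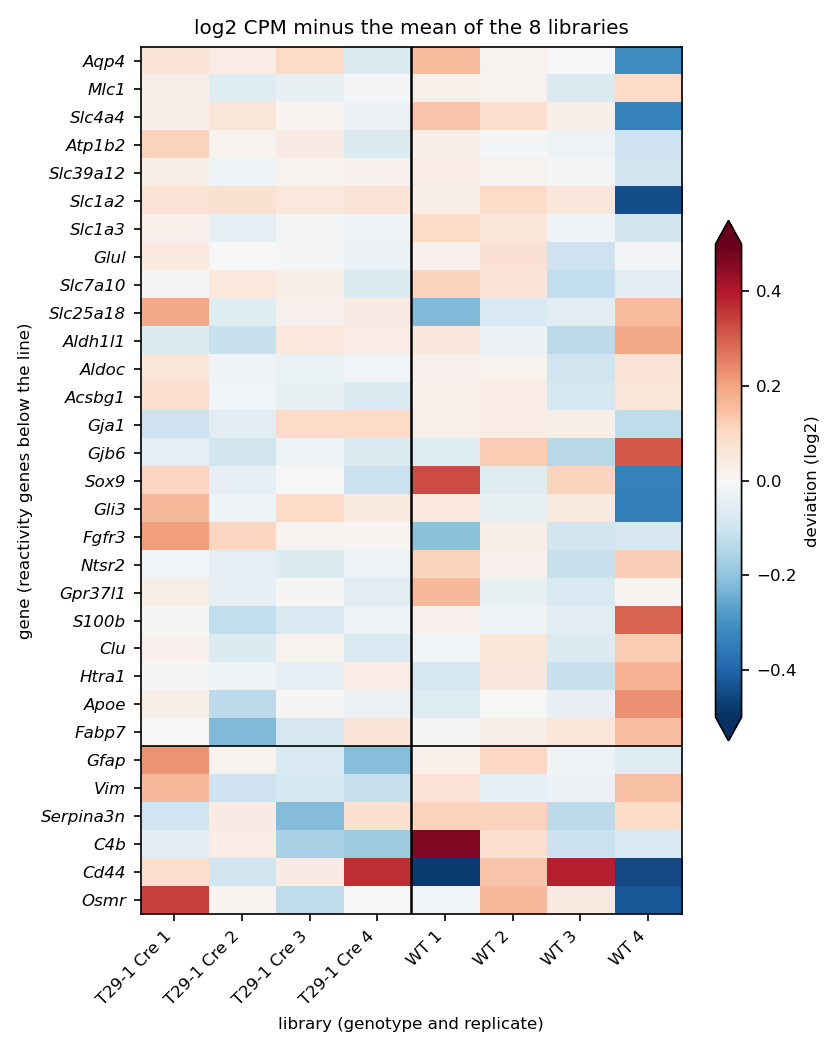
Heat map of log2 CPM minus the mean of the 8 libraries for each member (rows, reactivity genes below the horizontal line) in each library (columns, T29-1 Cre left of the vertical line and WT right of it). Red is above and blue below the mean; WT replicate 4 holds the deep blue cells of the long members, among them Slc1a2, and WT replicate 1 the deep red cell of C4b.

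Markers of other cells were compared as summed CPM of each list. Microglial markers (12 of 12 tested) summed to 376 to 408 CPM in T29-1 Cre and 394 to 417 CPM in WT, and oligodendrocyte precursor markers (8 of 8) to 332 to 357 CPM in T29-1 Cre and 339 to 352 CPM in WT. Oligodendrocyte markers (12 of 12) summed to 3684 to 4040 CPM in T29-1 Cre and 3761 to 4550 CPM in WT. All 12 oligodendrocyte markers had log2 fold changes below 0 (median -0.09), as did 10 of 12 microglial markers (median -0.05). The oligodendrocyte markers had median deviations of 0.22, -0.015, -0.10 and 0.01 in WT replicates 1 to 4, against -0.07, -0.04, -0.08 and 0.02 in T29-1 Cre replicates 1 to 4. For the microglial markers these were 0.01, -0.03, 0.005 and 0.15 in WT, against 0.05, -0.12, 0.02 and -0.02 in T29-1 Cre. The largest deviation was that of WT replicate 1 for the oligodendrocyte markers and that of WT replicate 4 for the microglial markers. For the microglial markers T29-1 Cre replicate 2, at -0.12, lay nearly as far from 0. Neither median was taken without a single library, so what each shift rested on was not tested. The secreted group and C4b were below 0 as well, and the part of oligodendrocytes and microglia in them was not tested. Endothelial and mural markers (10 of 10) summed to 271 to 356 CPM in T29-1 Cre and 267 to 319 CPM in WT, and excitatory neuron markers (8 of 8) to 7767 to 8397 CPM in T29-1 Cre and 8236 to 8495 CPM in WT. Ependymal markers (5 of 8 tested) summed to 12.1 to 18.1 CPM in T29-1 Cre and 11.8 to 24.8 CPM in WT, and meningeal markers (8 of 8) to 104 to 168 CPM in T29-1 Cre and 111 to 129 CPM in WT. Choroid plexus markers (4 of 7 tested) summed to 28.2 to 55.5 CPM in T29-1 Cre and 25.2 to 30.3 CPM in WT. Of these sums Kl held a mean of 21.8 CPM in T29-1 Cre and 20.7 CPM in WT. Ttr was 2.39 higher in log2 (SE 0.633, edgeR adjusted p = 0.9985), at 11.3 ± 11.1 CPM in T29-1 Cre and 2.08 ± 1.54 CPM in WT (SD, n = 4 each). With 1 library left out, Ttr ran from 1.48 without T29-1 Cre replicate 3, which held the 55.5 CPM, to 3.10 without WT replicate 3. With all libraries Ttr and Clic6, at 0.89, had an unadjusted edgeR p under 0.05. No marker of these lists was at 0 in every library, the ranges of the genotypes overlapped for every list, and 0 of the markers were called.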

How the data were processed

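The authors deposited a table of unscaled read counts per gene name for 8 libraries, and a table of their comparison with log2 fold changes, a mean log2 CPM, a mean CPM, p-values and a signed fold score in which a decrease is negative, per the file headers. STAR 2.6.1d, featureCounts, edgeR 3.11 and GRCm38 are named, per the submitters' processing notes; the annotation, strand setting and rule for multimapped reads are not given in sources used here. Libraries were stranded poly(A) libraries sequenced as 150 bp paired reads, per the labels' protocols.

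Counts were analysed in R 4.3.3 with edgeR 4.0.16: filterByExpr (minimum count 10, minimum total 15), TMM scaling and the quasi-likelihood F test of T29-1 Cre against WT with no covariate, with Benjamini-Hochberg adjustment over all 15996 genes tested and a threshold of 0.05. Standard errors were derived from the F statistic (fold change in log2 over its root). CPM uses TMM-scaled totals, and log2 CPM a prior count of 2. Single genes also had an exact permutation test over 70 assignments. Exon lengths and positions come from GENCODE M21 on GRCm38, which matched 31 of 31 members by name, and promoter windows from RefSeq. Alternatives used DESeq2 1.42.0, limma 3.58.1, other scalings and filters, a replicate block and each library left out. Libraries of a genotype always differed by more than counting noise (chi-square over its degrees of freedom, 3.32 to 19.2). None was therefore taken as a repeat of another, and each counted once. This does not show that they came from separate animals. The scripts were tested on simulated data.

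The members and gene lists were chosen with earlier results of these data known. The text names all 31 members and, of each further list, the 3 genes with the smallest unadjusted p; for the lists of other cell types, summed levels are given.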

Additional observations from a re-analysis of the deposited data

Results flagged for a closer look

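In each genotype of 4 libraries, 34 measures (31 genes and 3 medians) were searched for 1 library lying apart from its 3 companions. Of 68 groups 4 held one, where chance flags about 1 in 20. In WT replicate 4, Slc1a2 was at 11.1 log2 CPM (the other WT libraries 11.5 to 11.6) and Gja1 at 7.49 (7.64 to 7.65). In T29-1 Cre replicate 1, Vim was at 5.02 log2 CPM (the other T29-1 Cre libraries 4.74 to 4.77). In WT replicate 3, Serpina3n was at 5.35 log2 CPM (the other WT libraries 5.58 to 5.6).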

How the results depend on the processing

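In 18 alternatives, 10 with all libraries and 8 that left out 1 library each, 0 of 31 members were called. The smallest adjusted p of any member was 0.892, with no filter on low counts. In that setting C4b had an unadjusted edgeR p of 0.0209. The number of genes called over all genes was 1 in every alternative except with no filter on low counts and with the replicate block, which each gave 2 genes, St6gal2 and Ttr; the cause was not tested. Same-numbered libraries did not deviate together (correlations of -0.073, 0.054, 0.018 and -0.034 for numbers 1 to 4), so the libraries were not treated as pairs, though what the numbers mark is not known; with the block Ttr had an SE of 0.24 in place of 0.633 (adjusted p = 0.0144), C4b an unadjusted p of 0.0456, and the median log2 fold change was -0.02 for identity genes and -0.05 for reactivity genes. Of 558 comparisons of a member with an alternative, 522 kept their direction and 36, in 15 genes, turned it, all of them uncalled; the cause was not tested. With length and GC offsets Gja1 was at -0.0342, Aldoc 0.0131, Slc7a10 0.0287, Htra1 0.00578 and Slc4a4 -0.0211. Glul was at -0.00118 with upper-quartile scaling. Slc7a10 was at 9.49e-05 with DESeq2, 0.00163 with limma-voom, 3.81e-05 with RLE scaling and 0.00107 with the replicate block. Leaving out 1 library gave ranges of -0.0253 to 0.122 for Aqp4, -0.0948 to 0.0144 for Aldh1l1, -0.0600 to 0.00159 for Slc1a3, -0.0183 to 0.0551 for Gja1 and -0.0389 to 0.0175 for Aldoc. The ranges were -0.0279 to 0.0323 for Glul, -0.145 to 0.0697 for Sox9, -0.0492 to 0.00242 for Acsbg1, -0.0423 to 0.0356 for Slc7a10 and -0.0604 to 0.0378 for Htra1. They were -0.100 to 0.00346 for Apoe, -0.0695 to 0.0772 for Slc4a4, -0.0624 to 0.0192 for Gpr37l1, -0.103 to 0.0461 for Gfap and -0.000361 to 0.176 for Osmr. Of the members that kept their sign, Slc1a2 ran from 0.0045 to 0.17, Slc25a18 from 0.04 to 0.17, Gli3 from 0.05 to 0.17, Gjb6 from -0.19 to -0.03, S100b from -0.16 to -0.04, Clu from -0.09 to -0.02, C4b from -0.27 to -0.06 and Cd44 from 0.03 to 0.34. Mlc1 ran from -0.0649 to -0.00872, Atp1b2 from 0.0251 to 0.0858, Ntsr2 from -0.125 to -0.0478, Slc39a12 from 8.61e-05 to 0.0422 and Vim from -0.139 to -0.0293. The identity median ran from -0.04 to 0.01, the reactivity median from -0.09 to 0.0031 and their difference from -0.06 to 0.01. Cd44 and Osmr had the fewest counts, at least 62 and 83 per library.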
